A study of Mus musculus with 6 samples.

Results

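The T-cell receptor complex and lineage genes were followed here as 10 named genes: the CD3 chains Cd3d, Cd3e and Cd3g, the zeta chain Cd247, the coreceptors Cd4, Cd8a and Cd8b1, and the proximal signalling genes Lck, Zap70 and Lat. They were chosen by name from the 56884 genes of a raw count table, by matching Ensembl gene identifiers without their version to mouse symbols of GENCODE M21, and all 10 were found. All 10 also passed the filter on low counts, which left 18177 genes for testing.

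Messenger RNA was sequenced from 6 mouse ectopic lesions, each lesion as 1 library. The tissue of 3 lesions came from 8-week-old female donors with a floxed Dnmt3a gene and no Cre (Dnmt3a f/f), which the labels call wild-type (WT). That of the other 3 came from 8-week-old female donors that also carried Cre recombinase in cells expressing progesterone receptor (Dnmt3a f/f:PR-Cre/+), labelled as DNMT3A knockout (KO), so both groups shared the floxed allele. The recipients were wild-type 8-week-old females of C57BL/6J background carrying an estrogen pellet. The labels give a collection time of 4 weeks after uterine fragments, 20 per dissected uterus, were injected into the peritoneal cavity, whereas the methods give day 21 and a fragment sutured to the mesentery, and the values cannot settle which applies. Cre acts in progesterone receptor-expressing cells of the donor tissue, while T cells in a lesion may have come with the donor fragment or from the recipient, and these libraries cannot tell them apart. Because whole lesions were sequenced, fewer T cells and less RNA per T cell cannot be told apart.

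A T cell recognizes peptide on a major histocompatibility molecule through its receptor, whose antigen-binding chains have no signalling tail of their own. The CD3 gamma, delta and epsilon chains and the zeta chain carry that signal inward. CD4 marks helper and regulatory T cells and binds class II molecules, while CD8, a pair of an alpha and a beta chain on conventional cytotoxic T cells, binds class I molecules. Both coreceptors bring the kinase LCK to the receptor, LCK phosphorylates the CD3 and zeta tails, ZAP-70 docks there, and ZAP-70 phosphorylates the scaffold LAT, on which further signalling proteins assemble. In endometriosis, T cells are among the leukocytes found in the peritoneal fluid and in lesions.

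The libraries held 45370342 to 57239184 counts, and levels are given as CPM, the counts of a gene scaled to a common library size, after scaling of the library sizes by TMM. Dnmt3a itself was at 52.7, 43.9 and 51.7 CPM in WT replicates 1, 2 and 3 and at 30.3, 33.5 and 36.2 CPM in the KO replicates, with no overlap. The labelled tissue was present in every library: the summed level of 7 endometrial epithelium markers was 11042 to 20604 CPM across WT and 17103 to 36470 CPM across KO lesions, and that of 7 endometrial stroma markers was 3728 to 4210 CPM and 1860 to 5038 CPM. Most of the epithelial sum was Ltf, at 9882 to 19058 CPM across WT and 15673 to 33570 CPM across KO lesions, while Epcam was at 211 to 468 CPM. Among the WT lesions, replicate 2 stood apart with 9706 CPM of 6 neutrophil markers, against 211 CPM in replicate 3 and 472 CPM in replicate 1. Skeletal muscle markers, 6 genes together, reached 25284 and 26978 CPM in WT replicates 1 and 3 and stayed at 3.26 CPM in WT replicate 2 and at 5.88 to 14.0 CPM across KO lesions. The methods give 3 donors and 3 lesions for each genotype, while the labels tie no library to a donor, and the p-values measure the spread between these lesions.

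T-cell receptor complex and lineage genes were low in KO compared to WT lesions. All 10 had a lower fitted level in KO, with log2 fold changes (KO minus WT) from -2.28 for Cd247 to -1.30 for Lck and a median of -1.90, beside a median of 0.01 over all genes tested. Of all genes tested, 48.6% had a lower fitted level in KO. The study's threshold asks for a log2 fold change beyond 1 in size and an unadjusted p-value under 0.05. It was passed by 9 of the 10 in edgeR's quasi-likelihood test, where 5.85% of all genes tested passed it in the lower direction and 3.1% in the higher. Cd3g missed it. The Benjamini-Hochberg adjusted p-values of that test ran from 0.321 to 0.341, so 0 of the 10 were below 0.05. An unadjusted value below 0.05 was found for 9 of the 10 and for 2674 of all 18177 genes tested. Of all genes tested 1, or 0.0055%, was below 0.05 after adjustment. By DESeq2's Wald test the adjusted p-value was below 0.05 for 2, Cd8a (0.00711) and Cd8b1 (9.58e-05), where 4.04% of the genes with an adjusted p-value passed on the lower side. With WT replicate 2 left out, that test's adjusted p-value was 0.0668 for Cd8a and 0.00545 for Cd8b1.

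In 9 of the 10 genes every KO lesion lay below every WT lesion, which held for 8.74% of all genes tested. No single gene could reach 0.05 in an exact two-sided permutation test, since 3 lesions against 3 allow no p-value below 0.1. The lesions of a group were far from alike. WT replicate 2 had the highest level of all 10 genes, KO replicate 2 had the lowest level of 8, and KO replicate 3 was the highest KO lesion for 9. Relative to the WT mean on the log2 scale, the median of the 10 genes was -0.38, 1.00 and -0.57 in WT replicates 1, 2 and 3 and -2.01, -2.46 and -0.96 in KO replicates 1, 2 and 3. With WT replicate 2 left out, the 10 genes were still lower in KO with a median of -1.19, but 2 of the 10 passed the study's threshold, Cd8a and Cd8b1, beside 5.86% of all genes. Leaving out KO replicate 2 also left 2 (3.48% of all genes) and leaving out KO replicate 1 left 3 (2.9%), while leaving out KO replicate 3 left 9 (8.66%) with a median of -2.50.

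**Figure D1:**
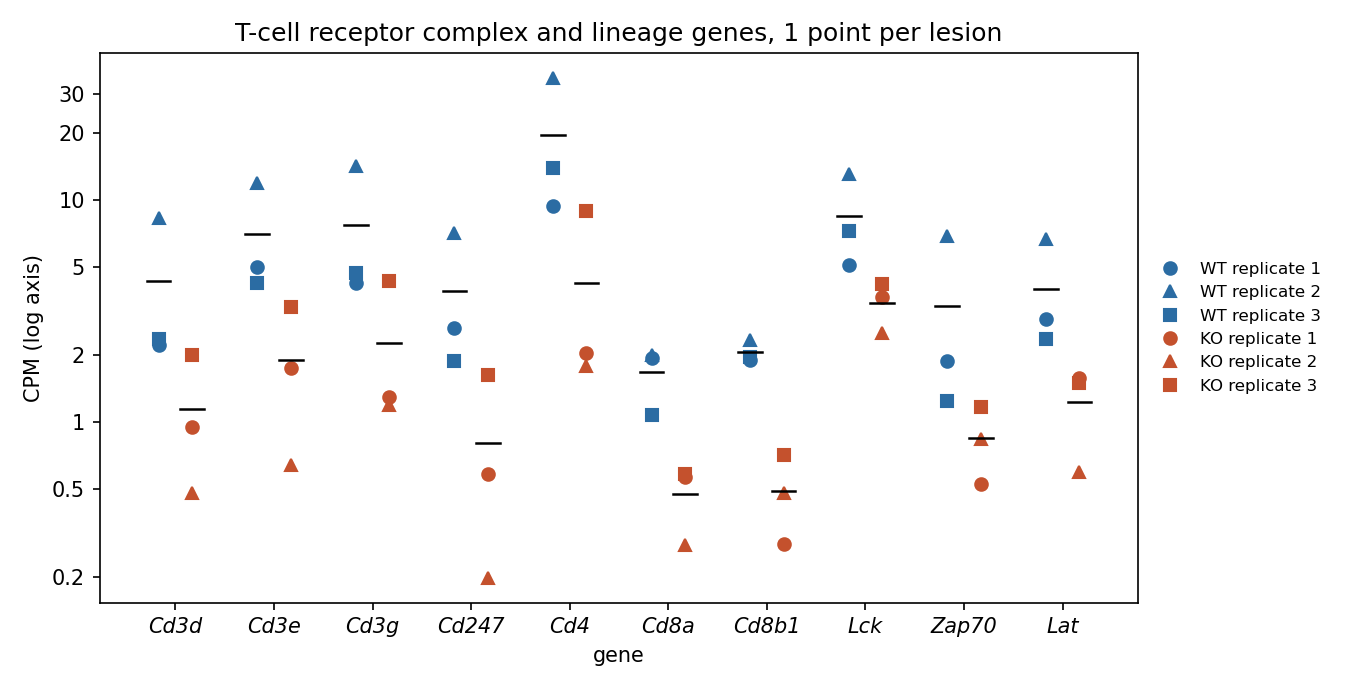
Levels of the 10 genes in CPM (log axis), 1 point per lesion, with WT and KO lesions in different colours, the marker shape giving the replicate number, and a short line at each group mean. KO points lie below the WT points for every gene except Cd3g, where KO replicate 3 (4.29 CPM) sits above WT replicate 1 (4.23 CPM).

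The genes of the CD3 chains lie together on chromosome 9 of GRCm38. Cd3g (44969572 to 44980431, minus strand) and Cd3d (44981786 to 44987339, plus strand) are transcribed away from each other from starts 1355 bases apart, and Cd3e (44998740 to 45009627, minus strand) ends 11401 bases from the end of Cd3d. Positions here and below are those of GENCODE M21, since the sources name both GRCm38 and GRCm39 for the counts. The 300 bases around each start (250 before and 50 after) are shown because these neighbours moved together across the lesions. That was not particular to neighbours, since Cd247 on chromosome 1 followed the mean of these genes as closely (Pearson's r 0.990). The promoter of Cd8a, a coreceptor gene from another chromosome, is shown beside them. All are RefSeq windows on GRCm38.p6, in the direction of transcription. Capitals mark the ETS core AGGAAG and the RUNX core TGTGGT, searched on both strands.
Cd3g, chr9:44980382-44980681, minus strand: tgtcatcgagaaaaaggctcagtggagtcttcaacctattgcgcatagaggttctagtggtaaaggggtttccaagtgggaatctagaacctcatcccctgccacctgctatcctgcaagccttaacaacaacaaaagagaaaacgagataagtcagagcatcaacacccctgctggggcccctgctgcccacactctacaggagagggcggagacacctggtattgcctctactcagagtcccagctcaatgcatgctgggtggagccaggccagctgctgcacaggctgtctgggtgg
Cd3d, chr9:44981536-44981835, plus strand: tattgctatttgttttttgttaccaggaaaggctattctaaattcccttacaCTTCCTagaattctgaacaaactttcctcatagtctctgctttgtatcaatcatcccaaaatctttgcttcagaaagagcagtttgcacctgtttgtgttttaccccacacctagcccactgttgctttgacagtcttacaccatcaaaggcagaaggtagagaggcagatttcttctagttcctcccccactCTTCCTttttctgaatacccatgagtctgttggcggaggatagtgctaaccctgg
Cd3e, chr9:45009562-45009861, minus strand: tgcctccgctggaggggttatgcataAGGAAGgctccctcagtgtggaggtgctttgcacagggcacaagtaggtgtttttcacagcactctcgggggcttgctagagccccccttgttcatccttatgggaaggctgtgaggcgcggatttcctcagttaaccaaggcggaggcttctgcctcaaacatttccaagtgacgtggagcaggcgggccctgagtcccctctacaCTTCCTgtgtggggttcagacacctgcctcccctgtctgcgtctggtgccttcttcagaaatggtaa
Cd8a, chr6:71373177-71373476, plus strand: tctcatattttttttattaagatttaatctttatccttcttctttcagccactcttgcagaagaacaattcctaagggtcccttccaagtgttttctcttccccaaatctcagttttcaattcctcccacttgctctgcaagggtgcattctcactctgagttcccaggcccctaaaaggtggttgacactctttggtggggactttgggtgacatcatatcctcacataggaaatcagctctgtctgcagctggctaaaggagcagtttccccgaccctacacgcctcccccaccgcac

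The windows of Cd3d and Cd3e held the ETS letters at 2 places each and those of Cd3g and Cd8a at none. CpG pairs, the dinucleotides that DNMT3A methylates, numbered 4 for Cd3g, 1 for Cd3d, 8 for Cd3e and 3 for Cd8a, against a median of 7 over all 32851 windows. Of the 10 genes, 8 had a window in the table, with 11 windows in all, since Lck had 2 and Zap70 had 3. Cd4 and Cd8b1 had none. ETS letters occurred in 8 of the 11 windows and in 35.4% of all windows, RUNX letters in 3 of the 11 and in 16.8%, and the E-box CANNTG in 11 of the 11 and in 72.3%. These are matches of letters in the reference sequence, not binding sites, and no methylation was measured.

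Among the receptor's signalling chains, Cd3e, whose product pairs with both the gamma and the delta chain, was at 4.996, 11.9 and 4.23 CPM in WT replicates 1, 2 and 3 and at 1.75, 0.636 and 3.29 CPM in KO replicates 1, 2 and 3. The groups did not overlap, but KO replicate 3 lay closer to WT replicate 3 than to KO replicate 2. The means were 7.03 ± 4.20 CPM (SD, n = 3) and 1.89 ± 1.33 CPM (SD, n = 3). The log2 fold change was -1.89 ± 0.70 (here and below ± after a log2 fold change is the standard error), past the study's threshold, and without WT replicate 2 it was -1.28 and no longer past it.

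Cd3d, the delta chain gene, was at 2.22, 8.28 and 2.35 CPM across WT and at 0.947, 0.477 and 2.00 CPM across KO lesions. WT replicate 2 held 3.63 times the mean of the other WT lesions, and KO replicate 3 nearly reached WT replicate 1. Its log2 fold change of -1.91 ± 0.76 passed the study's threshold, and without WT replicate 2 it was -1.0 and did not.

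Cd3g, the gamma chain gene, was at 4.23, 14.2 and 4.66 CPM across WT and at 1.30, 1.19 and 4.29 CPM across KO lesions. It was the member whose groups overlapped, since KO replicate 3 lay between WT replicates 1 and 3. Its log2 fold change of -1.77 ± 0.74 had an adjusted p-value of 0.341 from edgeR.

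Cd247 on chromosome 1 (165788681 to 165877277, plus strand) encodes the zeta chain, which carries more phosphorylation motifs than any CD3 chain. It was at 2.65, 7.11 and 1.88 CPM across WT and at 0.579, 0.199 and 1.63 CPM across KO lesions. The groups did not overlap, and KO replicate 3 lay at 4.18 times the mean of the other KO lesions. The fitted change of -2.28 ± 0.89 was the lowest of the 10 and past the study's threshold, and without WT replicate 2 it was -1.5 and not past it. The gene overlaps Pou2f1 on the other strand and Cd3e overlaps the antisense gene Gm48719. The libraries were made with a stranded kit, but the strand setting of the counting is not given in the sources used here, so reads of these overlaps are uncertain.

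The antigen-binding chains of the receptor are outside the 10 genes, and their constant regions were read as a list of 8, of which 6 were tested. All 6 had a lower fitted level, with a median log2 fold change of -2.08. Of them 4 passed the study's threshold, beside 5.85% of all genes tested on the lower side, and none reached an adjusted p-value of 0.05 in edgeR's test. Trac, the alpha constant region, was at 5.40, 8.64 and 3.99 CPM across WT and at 0.754, 0.636 and 3.08 CPM across KO lesions (log2 fold change -2.01 ± 0.71). Trbc2, a beta constant region, was at 4.23, 11.1 and 3.87 CPM and at 0.965, 0.596 and 2.73 CPM (-2.16 ± 0.73), and Trbc1 changed by -2.05. These beta genes are nearly identical, so the split of reads between them is uncertain. Trgc1 of the gamma chain had a log2 fold change of -2.12, with overlapping groups. Without WT replicate 2 the median of the list was -1.29 and 1 gene, Trbc1, passed. KO replicate 3 was the highest KO lesion for each of these 4 genes, as for the CD3 genes.

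Of the coreceptor genes, Cd4 lies on chromosome 6 from 124864692 to 124888221 (minus strand). It was at 9.35, 35.3 and 13.8 CPM in WT replicates 1, 2 and 3 and at 2.03, 1.79 and 8.88 CPM in KO replicates 1, 2 and 3. WT replicate 2 had 3.05 times the mean of the other WT lesions and KO replicate 3 had 4.64 times the mean of the other KO lesions. KO replicate 3 lay just under WT replicate 1, and their 95% Poisson intervals overlapped, at 7.72 to 10.2 CPM for KO replicate 3 and 8.15 to 10.7 CPM for WT replicate 1. Cd4 had a fitted change of -2.20 ± 0.83, past the study's threshold, which became -1.45 without WT replicate 2 and no longer passed. Some dendritic cells of the mouse also hold Cd4 RNA.

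Cd8b1 and Cd8a lie on the same strand of chromosome 6, 35933 bases apart (71322788 to 71337494 and 71373427 to 71379173). Cd8a, the alpha chain gene, was at 1.94, 2.00 and 1.07 CPM across WT and at 0.561, 0.278 and 0.583 CPM across KO lesions. The groups did not overlap, and WT replicate 2 was at 1.33 times the mean of the other WT lesions, where Cd4 had 3.05 times. These are few reads: 91, 89 and 50 counts in WT and 32, 14 and 28 counts in KO lesions. The interval of WT replicate 3 (0.691 to 1.58 CPM) overlapped that of KO replicate 1 (0.321 to 0.912 CPM) and that of KO replicate 3 (0.319 to 0.979 CPM). The resulting log2 fold change of -1.81 ± 0.44 was past the study's threshold and stayed so, at -1.66, without WT replicate 2.

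Cd8b1, the beta chain gene and the more restricted marker of conventional CD8 T cells, was at 1.90, 2.34 and 1.96 CPM across WT and at 0.281, 0.477 and 0.708 CPM across KO lesions. Its WT lesions were the closest together of any of the 10 genes (2.07 ± 0.24 CPM, SD, n = 3, against 0.489 ± 0.214 CPM in KO), and the counting intervals of the groups did not overlap, the lowest bound in WT being 1.40 CPM and the highest in KO 1.13 CPM. Its log2 fold change of -2.08 ± 0.41 passed the study's threshold, as did the -1.98 found without WT replicate 2. Cd8a and Cd8b1 passed the study's threshold in all 13 alternative fits (other scaling, filters, tests, a replicate block and each lesion left out), with log2 fold changes from -2.07 to -1.54 and from -2.44 to -1.80. Each of the other 8 genes changed its call in 3 to 5 of the 13.

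**Figure D2:**
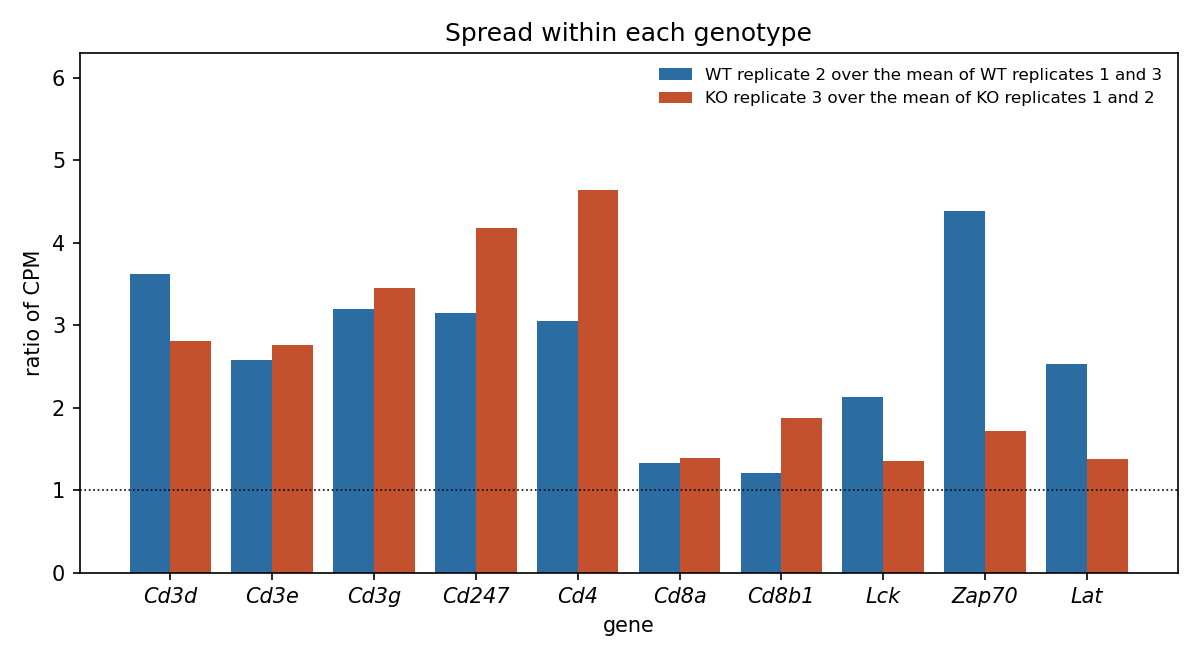
How far WT replicate 2 and KO replicate 3 stood from the rest of their groups, for each of the 10 genes, shown as the ratio of WT replicate 2 to the mean of WT replicates 1 and 3, and of KO replicate 3 to the mean of KO replicates 1 and 2, with a dotted line at a ratio of 1. Cd8a (1.33) and Cd8b1 (1.21) had the lowest WT ratios and Zap70 (4.39) the highest, while Cd4 (4.64) had the highest KO ratio.

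Cd4 beside Cd8a gave no difference in balance between the genotypes that these lesions could show. The level of Cd8a was 20.8%, 5.67% and 7.72% of that of Cd4 in WT replicates 1, 2 and 3 and 27.6%, 15.6% and 6.57% in KO replicates 1, 2 and 3, as plain ratios of counts without gene length. The groups overlapped, and the lowest share of the KO group, in replicate 3, lay between WT replicates 2 and 3. The log2 ratio averaged -3.36 ± 0.98 (SD, n = 3) in WT and -2.80 ± 1.04 (SD, n = 3) in KO lesions. The difference of 0.56 had a standard error of 0.82 (exact two-sided permutation test, p = 0.6), and leaving out single lesions it ran from 0.09 to 1.12. With Cd8b1 in place of Cd8a it was 0.23. Such a difference was not detectable with 3 lesions a group, which does not show that the balance was the same.

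**Figure D3:**
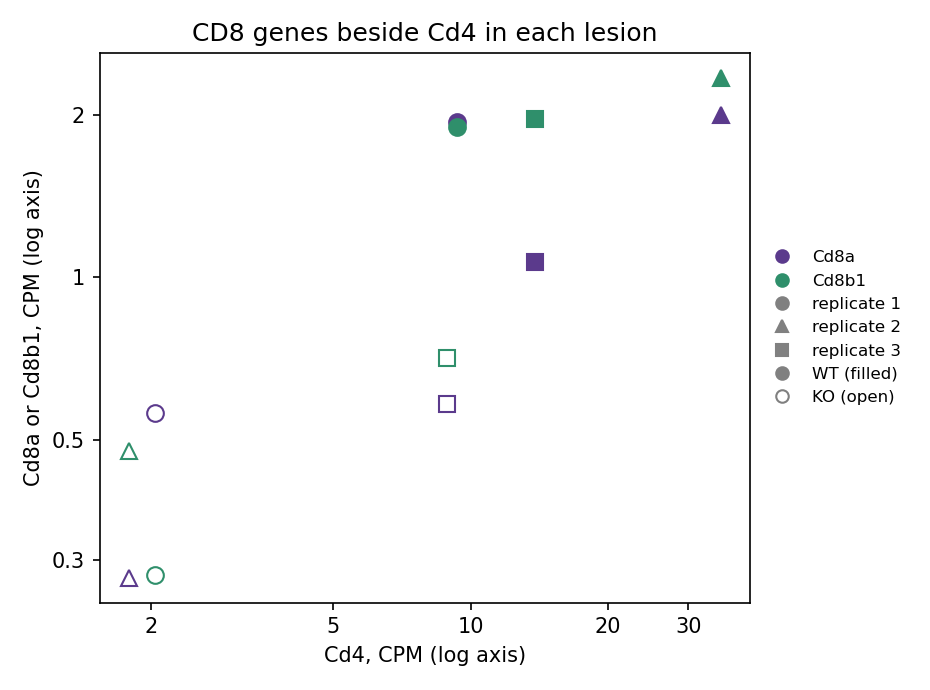
Cd8a and Cd8b1 levels against Cd4 levels in the 6 lesions (both in CPM, log axes), 1 point per gene and lesion, filled for WT and open for KO, with the marker shape giving the replicate number. Cd4 spans 1.79 to 35.3 CPM, and Cd8a stays between 0.278 and 2.00 CPM, with WT replicate 2 far to the right at a Cd8a level like that of WT replicate 1.

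Per kilobase of exon (CPM per kb), which allows levels of different genes to be set side by side, Cd4 was the highest of the 10 genes in each WT lesion and in KO replicate 3, and Lck was the highest in KO replicates 1 and 2. The WT means ran from 4.84 ± 3.44 CPM per kb (SD, n = 3) for Cd4 through 2.88 ± 1.41 for Lck, 2.36 ± 1.91 for Cd3d, 2.35 ± 1.73 for Cd3g and 1.72 ± 1.03 for Cd3e to 1.43 ± 0.84 for Lat, 1.39 ± 0.16 for Cd8b1, 1.11 ± 1.03 for Zap70, 0.728 ± 0.530 for Cd247 and 0.460 ± 0.144 for Cd8a. In KO lesions Lck (1.17 ± 0.29 CPM per kb) came before Cd4 (1.05 ± 1.00), and Cd8a was again the last (0.130 ± 0.047). The ranges of every pair of neighbours in either order overlapped, so the order holds for the means only. Exon lengths are of all annotated transcripts together and can overstate the length in use.

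The signalling genes next to the receptor were each lower in KO lesions. Lck on chromosome 4 (129548344 to 129573641, minus strand), the kinase bound to the coreceptors, was at 5.06, 13.1 and 7.20 CPM across WT and at 3.63, 2.50 and 4.17 CPM across KO lesions. It had the smallest change of the 10, and the groups did not overlap. At -1.30 ± 0.41 on the log2 scale it passed the study's threshold, and at -0.83 without WT replicate 2 it did not.

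Zap70 on chromosome 1 (36761798 to 36782818, plus strand), the kinase that docks on the phosphorylated CD3 and zeta chains, was at 1.88, 6.84 and 1.24 CPM across WT and at 0.526, 0.834 and 1.17 CPM across KO lesions. WT replicate 2 was 4.39 times the mean of the other WT lesions, and WT replicate 3 was barely above KO replicate 3. A log2 fold change of -1.98 ± 0.74, past the study's threshold, was -0.89 without WT replicate 2 and not past it.

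Lat on chromosome 7 (126363824 to 126369570, minus strand), the membrane scaffold that ZAP-70 phosphorylates, was at 2.90, 6.64 and 2.35 CPM across WT and at 1.58, 0.596 and 1.5 CPM across KO lesions. The groups did not overlap, and for this gene KO replicate 1, not KO replicate 3, was the highest KO lesion. Lat passed the study's threshold with a log2 fold change of -1.69 ± 0.57 and missed it, at -1.10, without WT replicate 2. NK cells also express Lck, Zap70, Lat and Cd247, and mast cells and platelets express Lat.

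**Figure D4:**
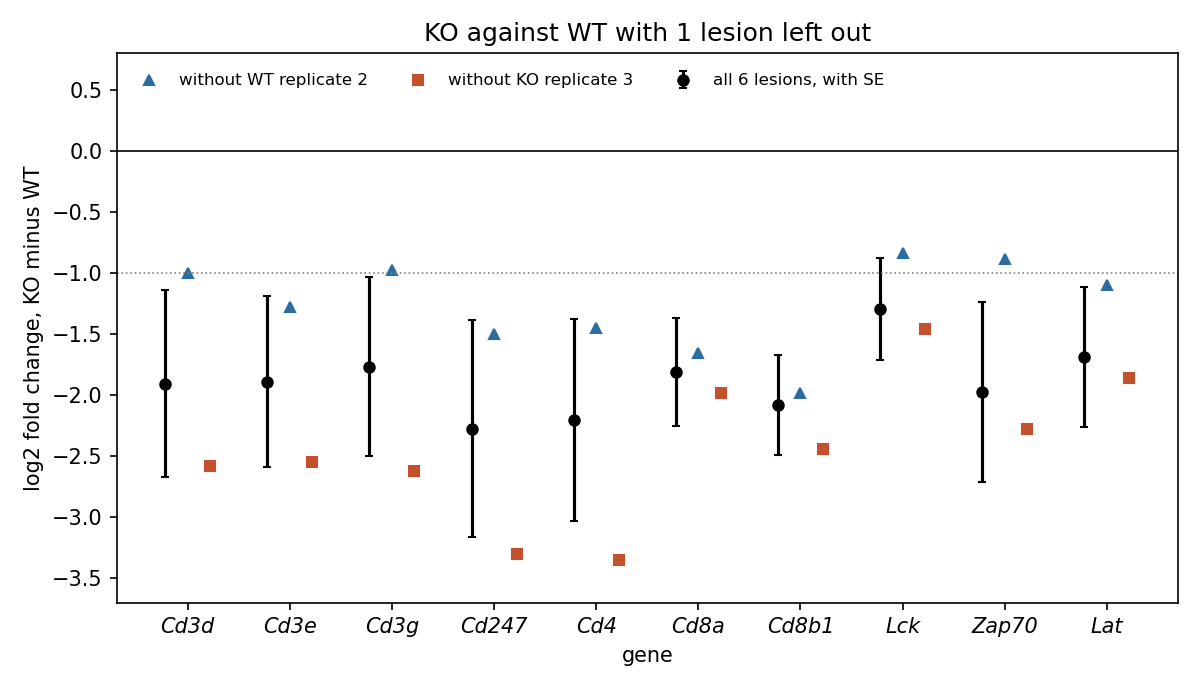
Log2 fold change (KO minus WT) of each of the 10 genes from all 6 lesions (bars are standard errors), and with WT replicate 2 or KO replicate 3 left out. The dotted line marks a log2 fold change of -1. Without WT replicate 2 the values lie nearer to 0 for all 10 genes, by the least for Cd8b1 (-2.08 to -1.98), and without KO replicate 3 Cd4 (-3.35) and Cd247 (-3.30) lie lowest.

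Some markers of other leukocytes were lower in KO lesions too. Of 6 neutrophil markers, 3 were lower past the study's threshold (30.3 to 170 CPM across KO lesions, summed), and of 6 B-cell markers 4 were (9.59 to 80.0 CPM across WT and 7.39 to 9.81 CPM in KO), each with its highest sum in WT replicate 2. On the lower side 5.85% of all genes tested passed. The neutrophil markers Cxcr2, Retnlg and Ly6g, with overlapping groups, did not pass. Ptprc, the pan-leukocyte gene encoding CD45, was at 87.4, 652 and 76.2 CPM across WT and at 47.1, 32.3 and 72.1 CPM across KO lesions. As a plain ratio of counts, Cd3e was 5.72%, 1.82% and 5.55% of Ptprc in WT and 3.72%, 1.97% and 4.57% of Ptprc in KO lesions, so the groups overlapped on that scale and the lowest share was that of WT replicate 2. Macrophage markers, 7 genes with 0 past the threshold, summed to 990 to 2352 CPM across WT and 491 to 1215 CPM across KO lesions. The part of overall leukocyte content in the lower T-cell genes was not tested.

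Other cells that can hold some of the 10 RNAs were checked likewise. NK markers were low, with 8 genes summing to 4.53 to 9.14 CPM across WT and 3.89 to 4.98 CPM across KO lesions, and 1 of the 6 tested was past the threshold. Conventional dendritic cells of type 1 express Cd8a, and their 5 markers summed to 30.4 to 69.7 CPM across WT and 15.6 to 32.4 CPM across KO lesions with 0 past the threshold. Most of these sums was Wdfy4, at 22.4 to 59.4 CPM across WT and 10.1 to 26.5 CPM across KO lesions. Xcr1 was at 1.84, 2.03 and 2.43 CPM across WT and at 1.37, 0.914 and 1.25 CPM across KO lesions. Clec9a had a log2 fold change of -0.14 with overlapping groups. Mast-cell markers ran from 54.2 to 569 CPM across WT and from 37.3 to 168 CPM across KO lesions (4 of 7 with a lower fitted level, 2 of them past the threshold), and platelet markers from 22.1 to 39.7 CPM and from 8.96 to 33.2 CPM (0 of 3 tested, with 1 of the 5 genes at 0 in every library). The highest mast-cell sum of each group was mostly Hdc, at 523 CPM in WT replicate 2 and 93.5 CPM in KO replicate 2. The 2 mast-cell markers past the threshold were Mcpt4 and Fcer1a, while Cpa3, Tpsb2 and Cma1 changed by 0.04, 0.16 and -0.19 (log2). Their part in the levels of Cd8a, Lat and the kinases was not tested.

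The wider T-cell programme was read from 7 lists of 74 genes beyond the 10. Over all genes tested, 48.6% had a lower fitted level, 5.85% fell past the study's threshold and 3.1% rose past it. With WT replicate 2 left out, 5.86% of all genes fell past it. Among 23 partners of receptor signalling, 20 had a lower fitted level, 7 fell past the study's threshold and 1 rose, with a median log2 fold change of -1.45. With WT replicate 2 left out, 3 fell past it and the median was -0.65. Rasgrp1, which activates Ras downstream of LAT, was at 31.7, 40.0 and 36.7 CPM across WT and at 9.39, 7.75 and 12.7 CPM across KO lesions, a log2 fold change of -1.86 ± 0.22. The groups were well apart, and cells other than T cells also express this gene. Ptpn22, a phosphatase that restrains LCK and ZAP-70, went the other way, at 24.4, 19.9 and 16.2 CPM across WT and at 79.5, 107 and 29.0 CPM across KO lesions (log2 fold change 1.84 ± 0.48). It was the only gene of the lists to rise past the threshold. In KO replicates 1 and 2 its level was above that of Ptprc (47.1 and 32.3 CPM), and which cells held it was not tested. Ubash3a, a negative regulator of the receptor largely restricted to lymphocytes, changed by -2.04 ± 0.51 on the log2 scale.

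Prkcq, the protein kinase C theta gene of T cells and skeletal muscle, was at 30.2, 4.16 and 25.9 CPM across WT and at 1.82, 1.47 and 2.77 CPM across KO lesions (log2 fold change -3.31). Unlike the 10 genes it was lowest of the WT lesions in replicate 2, and it was high in the same lesions as the muscle markers. Satb1, a chromatin organizer of the T-cell transcription factor list, had that order too, at 31.5, 10.8 and 26.1 CPM across WT and at 7.30, 10.8 and 8.38 CPM across KO lesions, with overlapping groups. The part of muscle in these genes was not tested. Of 12 tested T-lineage transcription factors, 6 fell past the threshold and 0 rose (median -1.45), and 3 fell past it with WT replicate 2 left out (median -0.97). Bcl11b, which maintains T-cell identity, was at 2.43, 3.56 and 1.84 CPM across WT and at 0.456, 0.318 and 1.13 CPM across KO lesions (log2 fold change -2.04 ± 0.57), and Lef1 changed by -1.77. The 1 transcription factor of the list whose fitted level was not lower was Tcf7, named after its value was seen (log2 fold change 0.47, not past the threshold).

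Surface receptors of T cells gave 5 of 8 tested that fell past the threshold and 0 that rose, with a median of -1.83. With WT replicate 2 left out, 1 passed and the median was -1.16. Cd2, an adhesion receptor shared with NK cells, was at 3.71, 6.35 and 2.39 CPM across WT and at 0.596, 0.516 and 1.33 CPM across KO lesions (log2 fold change -2.35 ± 0.56). Cd6 and the costimulatory receptors Cd28 and Icos had log2 fold changes of -2.31, -1.40 and -2.81. KO replicate 3 had the highest KO level of each of these genes, as it had for the CD3 chains. The 3 not past the threshold, named after their values were seen, were Cd5 (-1.78), Thy1 (-0.40) and Il7r (-0.39).

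Of 8 genes of the CD4 lineage, Cd4 among them, 6 fell past the threshold (median -2.30). Ctla4, an inhibitory receptor of regulatory and activated T cells, was at 1.02, 5.99 and 0.641 CPM across WT and at 0.175, 0.0397 and 0.542 CPM across KO lesions (log2 fold change -3.33 ± 1.23). Cxcr5, the follicle homing receptor that B cells also carry, changed by -2.40, and Cd40lg, the helper signal to B cells, by -1.87. Among 9 tested CD8 and cytotoxic genes, of a list of 12 that includes Cd8a and Cd8b1, 6 fell past the threshold (median -1.53). Gzmb, a granule protease, was at 1.58, 5.79 and 0.854 CPM across WT and at 0.561, 0.477 and 0.417 CPM across KO lesions (log2 fold change -2.49 ± 0.76). Ccl5, a chemokine of memory CD8 and NK cells, was at 8.52, 15.4 and 8.80 CPM and at 2.88, 1.07 and 3.75 CPM (-2.09 ± 0.52). The 3 not past the threshold, Gzma, Prf1 and Klrg1, were named after their values were seen. They had log2 fold changes of -0.34, -0.29 and -0.57, with overlapping groups. Without WT replicate 2, 1 of the CD4 lineage genes and 4 of the CD8 and cytotoxic genes passed, with medians of -1.31 and -0.82. The difference between these lists was not tested.

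Lymphocyte homing genes, 11 in number, all had a lower fitted level, 7 of them past the threshold, with a median of -2.05. Itgal, the alpha chain of the integrin LFA-1 on most leukocytes, was at 26.2, 157 and 23.0 CPM across WT and at 11.8, 8.01 and 18.3 CPM across KO lesions. Klf2, a factor of lymphocyte recirculation also found in endothelium, was at 28.5, 145 and 15.2 CPM and at 7.96, 6.67 and 16.8 CPM, with overlapping groups. Cd69, an early activation and residency marker, and Ccr6 had log2 fold changes of -2.28 and -3.16. The excess of WT replicate 2 was wide for Itgal and Klf2, and without it the median of the list was -0.89 and 1 gene passed. In edgeR's quasi-likelihood test 2674 of all 18177 genes tested had an unadjusted p-value below 0.05, and 38 of the 68 tested list genes outside the 10 had. None of these 68 reached an adjusted p-value of 0.05 in it. DESeq2's Wald test put 17 of them lower and 1 higher at that adjusted level and gave no adjusted value for 3.

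**Figure D5:**
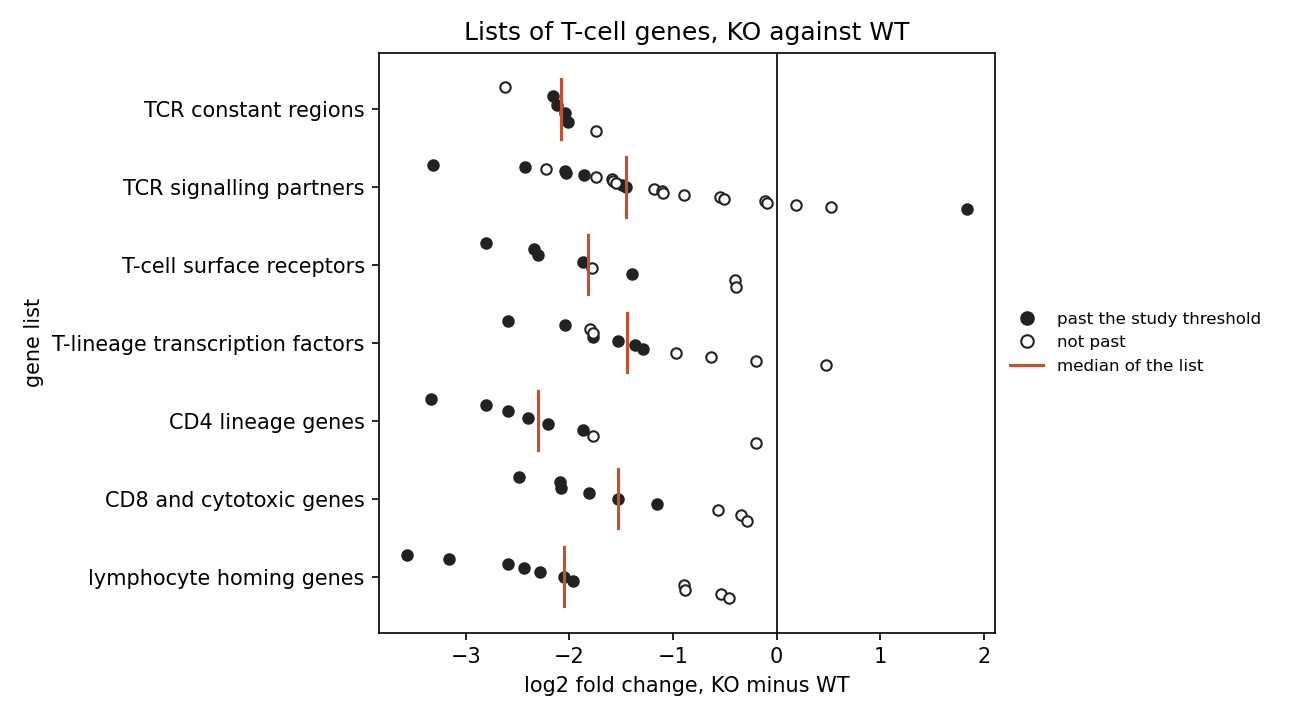
Log2 fold change (KO minus WT) of every tested gene in the 7 lists, 1 point per gene, filled where past the study's threshold and open otherwise, with a line at the median of each list. Medians run from -2.30 for CD4 lineage genes to -1.45 for signalling partners and for transcription factors, and Ptpn22 (1.84) is the point farthest above 0.

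Genes whose levels followed the CD3 chains most closely across the 6 lesions were sought among 15036 tested genes with a mean of at least 1 CPM, by Pearson's r of log2 CPM with the mean of Cd3d, Cd3e and Cd3g. With 6 lesions of which one stands apart, such values are a description. The closest outside the 10 were Ciita (0.999), Pip5k1a (0.998), Itgb7 (0.998), Cxcl3 (0.997) and Foxa1 (0.997). Ciita, the master regulator of class II genes, was at 16.0, 33.1 and 15.0 CPM across WT and at 7.47, 4.83 and 14.2 CPM across KO lesions, and Itgb7, an integrin chain of gut-homing lymphocytes, at 10.4, 26.9 and 10.04 CPM and at 5.19, 3.22 and 9.63 CPM. Both had WT replicate 2 at the top and KO replicate 3 just under the other WT lesions. Among the 10 genes, Cd247 had an r of 0.990 and Cd4 of 0.977, and the lowest were Zap70 (0.886), Cd8a (0.881) and Cd8b1 (0.833).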

How the data were processed

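Libraries were made from whole lesions with a stranded mRNA kit. The authors deposited raw read counts per gene as whole numbers. The submitters' processing notes name Trimmomatic, featureCounts, DESeq2 and GRCm39, whereas the methods name GRCm38. Symbols, coordinates and exon lengths came from GENCODE M21 (GRCm38). Of counts from 1 to 20, 89.2% to 90.6% were even, so both reads of a pair were apparently counted, and 95% Poisson intervals, which cover counting error only, used halved counts. Identifiers without a symbol held 3.04% to 3.56% of counts.

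The counts were fitted with edgeR 4.0.16 in R 4.3.3 (filterByExpr, TMM, quasi-likelihood test, genotype as the only term) and adjusted by Benjamini-Hochberg over 18177 genes. Alternatives used DESeq2 1.42.0 and limma 3.58.1. Ratios used a prior of 0.5 counts, likeness a prior of 2. The steps were tested on simulated data.

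The members and lists were chosen with earlier results of these data known. In each list, up to 4 genes past the study's threshold with the smallest p were named, and the 5 genes most like the CD3 genes. A gene that this rule names is not reported here.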

Additional observations from a re-analysis of the deposited data

How the results depend on the processing

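The direction of all 10 genes was kept in all 13 alternative fits and the 2 added after seeing the data (halved counts, and DESeq2 without WT replicate 2). The count of the 10 past the study's threshold was 9, and 8 to 10 with other scaling, filters, DESeq2 or voom. With single lesions left out it was 2 (WT replicate 2 or KO replicate 2), 3 (KO replicate 1) or up to 9, with medians from -2.50 to -1.19 on the log2 scale, and 2 with DESeq2 without WT replicate 2. The count with an adjusted p-value under 0.05 was 0 in edgeR's test, 2 with DESeq2 and 1 (Cd8b1) with DESeq2 without WT replicate 2. Of the list genes beyond the 10, 35 passed the study's threshold, 10 to 42 with a lesion left out (13 lacking WT replicate 2, 10 lacking KO replicate 1, 11 lacking KO replicate 2), and 18 with DESeq2 without WT replicate 2. The replicate numbers did not pair the lesions (correlations of deviations 0.03, -0.15 and -0.20), and with the replicate block 3 of the 10 and 14 list genes passed. The log2 difference in the ratio of Cd8a to Cd4 ran from 0.0859 to 1.12 with a lesion left out, and the Dnmt3a log2 fold change from -0.65 to -0.50. Over all genes, 1064 were lower past the threshold, 1641 with no filter on low counts, 573 with the replicate block, and 551, 658 and 1650 when KO replicate 1, 2 or 3 was left out. Of genes past it that were higher, 564 became 280 and 1021 when KO replicate 2 or 3 was left out, 855 with voom and 372 with the replicate block. The single gene with an adjusted p-value under 0.05 became 1100 with DESeq2, 12 with voom, 398 without WT replicate 2 and 1587 with DESeq2 without WT replicate 2. Under upper quartile scaling the median change over the whole table shifted from 0.01 to 0.11 (log2). Why the calls changed was not tested. Depth limits the lowest values, such as 10 counts of Cd247 and 14 of Cd8a in KO replicate 2.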
